A study of Mus musculus with 18 samples.

Results

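Oocytes carrying a functional Zfy2 transgene together with an Eif2s3y transgene (Zfy2_Eif2s3y) were compared with oocytes carrying a Zfy2 transgene that does not function (Zfy2_nf). Each genotype was measured on 3 bead arrays of the first labelled batch, 6 of the 18 arrays of the series, and all named genes of the non-normalized bead table were read. The arrays were chosen by title alone, and the females without a transgene (XX) did not enter the contrast. The other arrays came from XX, Zfy1_lo, Zfy1_hi and Zfy2 females, at 3 arrays a genotype.

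Every group was XX, on the MF1 outbred albino background, and 4 weeks old. Germinal vesicle oocytes were collected 45 to 48 hours after PMSG, a gonadotropin that makes follicles grow, and were stripped of cumulus cells. Each array held RNA from 1 pool of about 100 oocytes of at least 2 females, amplified before labelling. The Zfy2 transgene of the Zfy2_Eif2s3y females was single copy. Their Eif2s3y transgene was multi-copy and, in the submitters' design text, present in a proportion of the cells, and that text calls the group contaminated. Both transgenes differ between the groups, so an effect of Zfy2 and an effect of Eif2s3y cannot be told apart here. The promoters and insertion sites of the transgenes are not given in the sources used here. Array names put all 3 Zfy2_Eif2s3y arrays and Zfy2_nf array 3 on slide 2, and Zfy2_nf arrays 1 and 2 on slide 1. P-values measure the spread between such pools, and in pooled RNA fewer cells with a transcript and less transcript per cell cannot be told apart.

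Zfy2 is a Y-linked zinc finger protein with an acidic activation domain, and in the male germ line it acts during meiosis and sperm formation. Zfy1 is its close Y-linked copy and Zfx its X-linked homologue. Eif2s3y is the Y-linked copy of Eif2s3x, the gamma subunit of eIF2, which brings the initiator tRNA to the ribosome. The germinal vesicle oocyte is fully grown, is arrested in the first meiotic prophase and is largely silent in transcription, so its mRNA is mostly a store laid down during growth.

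The 6 arrays detected 19084 to 20292 of 45281 probes at a detection p under 0.05, with median signals of 89.7 to 108.6. Arrays of the same genotype correlated across genes at r = 0.972 to 0.985 and arrays of different genotype at r = 0.960 to 0.975. All 12 measured zona pellucida and oocyte-secreted genes, such as Zp1, Zp2, Zp3, Gdf9 and Bmp15, were detected on all 6 arrays. None of the 12 was called, nor was any of the 20 measured subcortical maternal complex and maternal effect genes. Over all genes 6.27% were called, a share that gives few calls in lists of this size. The changes of the 12 ran from -0.61 to 1.23 on the log2 scale.

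The Zfy2 probe was above background on each functional array and on none of the controls. It read 5.49, 6.20 and 6.04 log2 intensity on the Zfy2_Eif2s3y arrays and 4.44, 4.29 and 4.30 on the Zfy2_nf arrays. The groups did not overlap, and the difference of 1.57 ± 0.19 (SE) on the log2 scale, at least 2.11-fold, had an adjusted p of 1.29e-04 over all probes by limma. It was also detected on all 3 arrays of both Zfy1 groups, and whether it reads Zfy1 transcripts was not tested. The Zfy2_nf level of 4.34 ± 0.08 (SD, n = 3) lay by the 4.39 ± 0.07 (SD, n = 3) of XX.

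Eif2s3y was read by 2 probes that disagreed. The dimmer one read 6.14, 5.68 and 6.63 on the Zfy2_Eif2s3y arrays, where it was detected on all 3, and 4.36, 4.34 and 4.46 on the Zfy2_nf arrays, where it was detected on none. Its difference of 1.76 ± 0.17 (SE) was at least 2.49-fold, with a limma adjusted p of 2.03e-05. The brighter Eif2s3y probe was detected on no Zfy2_Eif2s3y array and on 2 Zfy2_nf arrays, with a difference of -0.20 and an adjusted p of 0.539. Eif2s3x, the X-linked copy, differed by -0.06 (adjusted p 0.885). The Zfy1 probes differed by -0.22 and 0.25 and the Zfx probes by -0.02 and 0.06, and none of these was called.

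**Figure D1:**
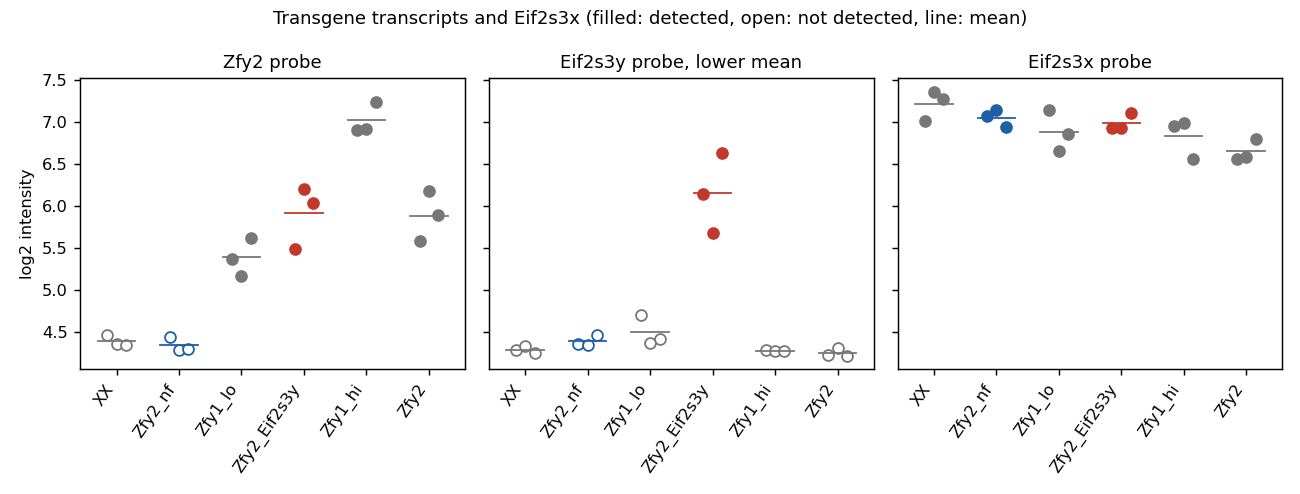
Log2 intensity of the Zfy2 probe, the dimmer Eif2s3y probe and the Eif2s3x probe on each of the 3 arrays of the 6 genotypes (points, filled where detected at p under 0.05; lines are group means). The dimmer Eif2s3y probe was detected on the 3 Zfy2_Eif2s3y arrays alone, at 5.68 to 6.63, and the Zfy2 probe was undetected in XX and Zfy2_nf.

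Of 12184 genes tested, 764 (6.27%) were called at an adjusted p under 0.05 by limma. In Zfy2_Eif2s3y 328 genes (2.69%) were higher and 436 (3.58%) were lower. The change was at least 2-fold for 111 of the higher genes (0.911%) and 164 of the lower (1.35%), and at least 4-fold for 12 and 11. At an unadjusted p under 0.05 there were 2370 genes (19.5%). The median size of a called change was 0.86 on the log2 scale and the smallest was 0.35. For 760 of the called genes (6.24% of those tested) the 3 and 3 arrays did not overlap, which held for 24.4% of all genes. The exceptions were Adipor1, Gnmt, Popdc2 and Rasa3, named here after their values were seen. Among the higher genes 33 went from undetected on all Zfy2_nf arrays to detected on all 3 Zfy2_Eif2s3y arrays, and 22 of the lower genes went the other way. The called genes were fewest, by share, among the dimmest and brightest genes, with 4.18% of the 5119 genes at a mean under 6 and 2.88% of the 1251 genes over 10, against 9.37% and 8.23% in the ranges between.

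**Figure D2:**
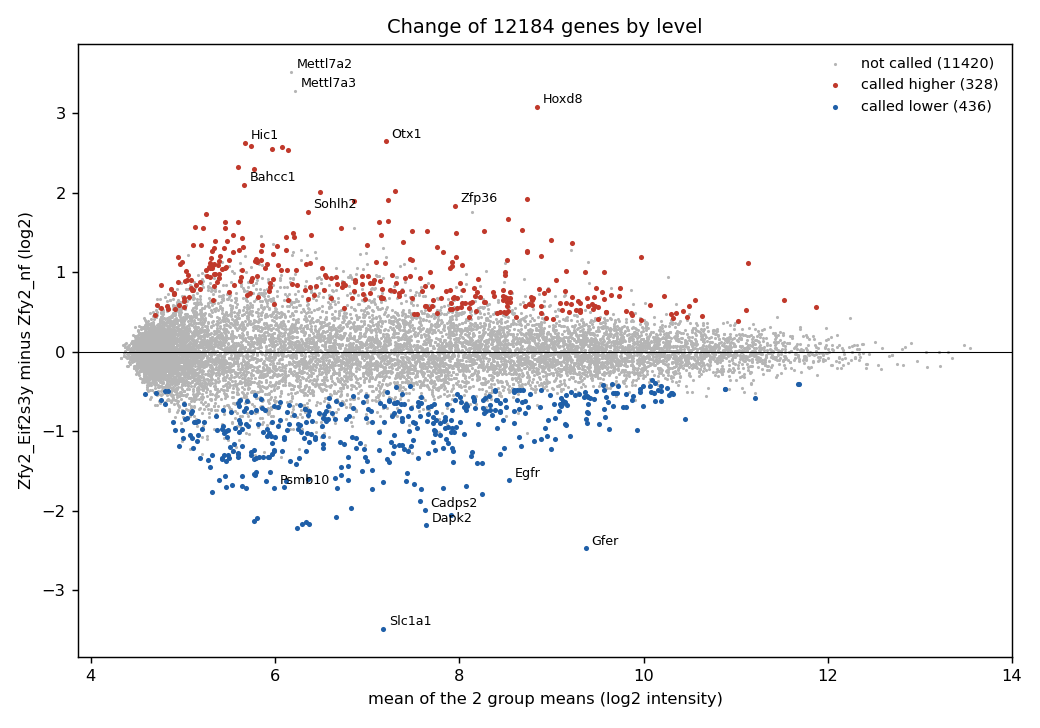
Change of each of 12184 genes (Zfy2_Eif2s3y minus Zfy2_nf, log2, vertical) against its mean level (log2 intensity, horizontal), with the 328 genes called higher in red and the 436 called lower in blue. Hoxd8 and Slc1a1 lie outermost among called genes, and the higher-lying grey points Mettl7a2 and Mettl7a3 were not called.

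AGGCCT, the core of the motif reported for the Zfx and Zfy family, was searched in the promoters of the named genes. It was present in 3 of the 11 largest rises with a promoter sequence and in 3 of the 11 largest falls. All 3 rises that hold it and, of the 8 that do not, Hoxd8 are shown. Each is the 250 bases before the annotated start, 5′ to 3′ on the gene's strand, from RefSeq on GRCm38.p6, in lower case with AGGCCT in capitals. Hic1 is chr11:75170256-75170505 on the minus strand, Bahcc1 chr11:120232697-120232946, Rai1 chr11:60104763-60105012 and Hoxd8 chr2:74704365-74704614, these last 3 on the plus strand.
Hic1: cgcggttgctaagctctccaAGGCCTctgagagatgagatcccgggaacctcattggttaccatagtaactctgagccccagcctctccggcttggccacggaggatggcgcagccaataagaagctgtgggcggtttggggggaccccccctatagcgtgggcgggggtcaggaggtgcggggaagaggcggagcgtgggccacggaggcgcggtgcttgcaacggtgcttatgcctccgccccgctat
Bahcc1: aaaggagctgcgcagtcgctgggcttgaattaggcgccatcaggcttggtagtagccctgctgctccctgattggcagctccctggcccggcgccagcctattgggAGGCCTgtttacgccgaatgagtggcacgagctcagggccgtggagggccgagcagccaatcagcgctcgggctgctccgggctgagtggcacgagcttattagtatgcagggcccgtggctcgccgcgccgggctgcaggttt
Rai1: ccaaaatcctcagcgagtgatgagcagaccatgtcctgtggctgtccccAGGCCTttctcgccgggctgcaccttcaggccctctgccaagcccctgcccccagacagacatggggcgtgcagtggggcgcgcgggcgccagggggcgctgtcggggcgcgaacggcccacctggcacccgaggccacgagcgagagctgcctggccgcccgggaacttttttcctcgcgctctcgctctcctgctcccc
Hoxd8: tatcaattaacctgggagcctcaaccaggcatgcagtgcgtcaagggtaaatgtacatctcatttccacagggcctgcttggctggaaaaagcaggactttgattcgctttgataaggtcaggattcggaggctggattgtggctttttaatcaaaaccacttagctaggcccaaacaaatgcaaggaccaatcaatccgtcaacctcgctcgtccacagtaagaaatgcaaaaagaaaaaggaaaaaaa
Counted from the annotated start, the first base of the motif is at -230 in Hic1, -144 in Bahcc1 and -201 in Rai1, and those letters are not in the Hoxd8 window.

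AGGCCT reads the same on both strands. It was present in the 300 bases around the start (250 before and 50 after) of 46 of 273 genes called higher that had a promoter sequence, or 16.85%. The share was 10.48% (37 of 353) for genes called lower and 10.62% for all 9873 genes tested that had one. Among genes called higher at least 2-fold it was 13.64% (12 of 88). The base composition also differed. The median GC content was 62.3% in the promoters of higher genes, 57.0% in those of lower genes and 60.0% in all. The part of base composition in the motif shares was not tested. The 3 falls that hold it are Gfer, Micall2 and Cpn1, and a match is not evidence of binding.

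Hoxd8, a homeobox gene that patterns the trunk, had the largest called rise. It read 10.49, 10.49 and 10.19 on the Zfy2_Eif2s3y arrays against 7.42, 7.32 and 7.17 on the Zfy2_nf arrays, and its mean in XX was 7.88. All 3 functional arrays stood above all 3 controls, and the change was 3.08 ± 0.27 (SE), 8.48-fold (adjusted p 7.03e-06). Otx1, a homeobox gene of the forebrain, read 8.33, 8.79 and 8.46 against 5.86, 5.57 and 6.20. It rose 6.28-fold with no overlap (2.65 ± 0.25, adjusted p 1.42e-05).

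The next group of rises started from an undetected level. Hic1, a zinc finger repressor and tumour suppressor, read 6.92, 7.06 and 7.0 against 4.31, 4.25 and 4.53, at least 4.47-fold (adjusted p 3.05e-09). Its 3 functional arrays lay within a narrow band well above every control. Csta2, of the cystatin family of cysteine protease inhibitors, read 7.39, 7.06 and 6.65 against 4.40, 4.45 and 4.49, at least 4.59-fold (adjusted p 1.19e-05). Tlx1, a homeobox gene needed for the spleen, read 6.61, 7.01 and 6.65 against 4.46, 4.48 and 4.35, at least 3.79-fold (adjusted p 3.80e-06). These were present in every functional pool and in no control pool at the detection limit. Gldc, the glycine decarboxylase of the glycine cleavage system, read 6.82, 7.37 and 6.57 against 4.59, 4.52 and 4.75, at least 4.25-fold (adjusted p 3.81e-05). Bahcc1, a BAH-domain chromatin reader, read 6.90, 6.80 and 6.45 against 4.64, 4.74 and 4.47, at least 3.69-fold (adjusted p 1.62e-07). The other probes of both genes were also called higher, at 1.32 for Gldc and at 2.02 and 2.37 for Bahcc1.

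The rest of the 12 named rises were above background on at least 1 control array. They leave out the predicted gene Gm4567, which rose by 2.54 (adjusted p 7.16e-04), since clone and locus names were not taken. Magee1, an X-linked gene of the MAGE family, rose by 2.58 (adjusted p 5.90e-06), and Dcpp3, of a family of secreted salivary proteins, by 2.55 (1.19e-05). Rai1, a chromatin-associated regulator whose loss in humans causes Smith-Magenis syndrome, read 7.22, 7.73 and 7.54 against 4.90, 6.12 and 5.42. Its change was 2.01 ± 0.35 (SE, adjusted p 0.00242), but its other probe differed by 0.16 (adjusted p 0.658). The pheromone receptor genes Vmn1r93 and Vmn1r123, both on chromosome 7, rose by 2.02 (adjusted p 7.23e-04) and 1.92 (3.98e-04). With Vmn1r243 (1.63, at least 2.71-fold) they were the called members among 17 measured Vmn1r genes, of 128 on the array. The share called was 17.6% of those measured, against 6.27% of all genes. Members of this family are near copies, so a probe may read more than 1 of them.

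**Figure D3:**
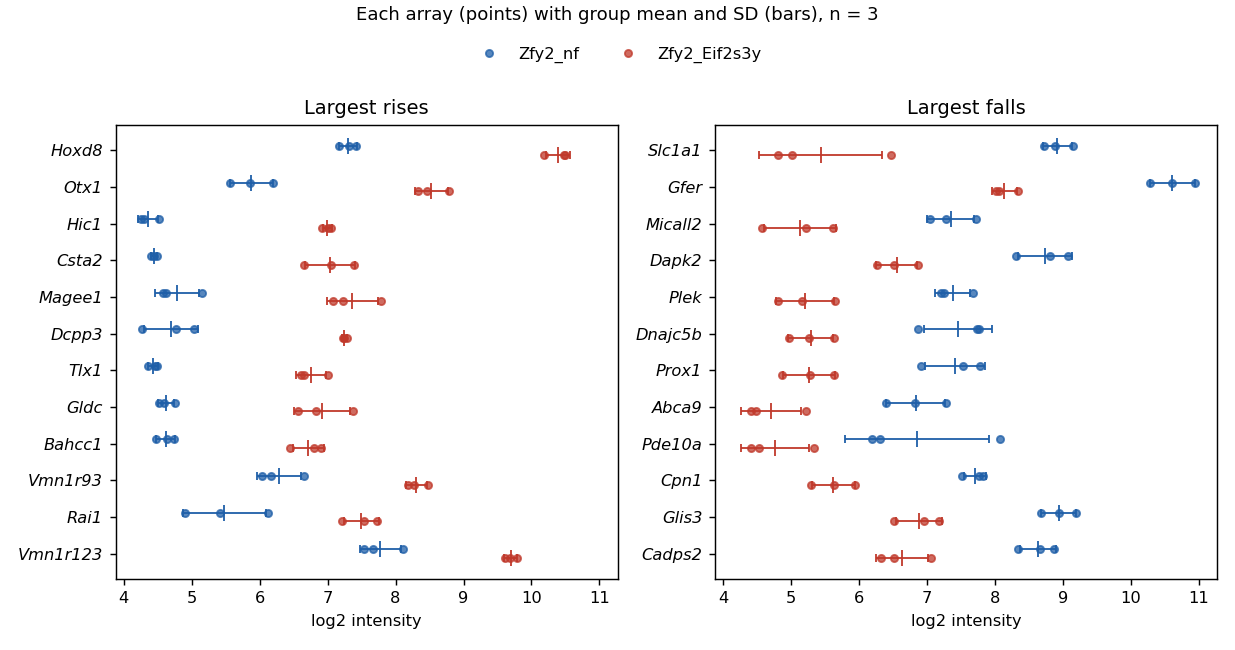
Log2 intensity of the 12 largest called rises (without the locus name Gm4567) and the 12 largest called falls on the 3 Zfy2_Eif2s3y arrays (red) and 3 Zfy2_nf arrays (blue); points are arrays and bars the mean and SD. Genes were taken only where the red and blue points do not overlap.

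The largest fall was that of Slc1a1, the high-affinity transporter of glutamate and aspartate. It read 5.02, 4.81 and 6.48 in Zfy2_Eif2s3y against 8.89, 9.15 and 8.72 in Zfy2_nf, and was undetected on 1 of the 3 functional arrays. The groups did not overlap, and the change was -3.49 ± 0.44 (SE), 11.2-fold (adjusted p 1.63e-04). Its other probes were lower by 1.97 (adjusted p 0.0578) and 0.20 (adjusted p 0.527) and were not called. Gfer, the sulfhydryl oxidase of the mitochondrial intermembrane space, read 8.05, 8.35 and 8.01 against 10.94, 10.28 and 10.61. It fell 5.55-fold (-2.47 ± 0.42, adjusted p 0.00206), and the XX mean of 9.51 lay between the groups.

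Among the other large falls, Dapk2, a calmodulin-dependent death-associated kinase, read 6.52, 6.26 and 6.87 against 9.08, 8.81 and 8.30 (-2.18, adjusted p 1.06e-04). Micall2, which acts in membrane recycling to cell junctions, fell by 2.21 on the log2 scale, with its other probe at -2.13. Cadps2, of dense-core vesicle release, read 6.52, 6.32 and 7.06 against 8.35, 8.87 and 8.66 (-1.99, adjusted p 6.82e-04). In all 3 genes every functional array lay below every control. Pde10a, a phosphodiesterase of cAMP and cGMP, read 4.53, 5.34 and 4.41 against 6.19, 6.30 and 8.07. Its control arrays spread widely, with array 3 the highest, and the change of -2.09 had an adjusted p of 0.00361. The second Dapk2 probe did not follow, at 0.03 (adjusted p 0.961).

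The falls also included transcription factors. Glis3, a zinc finger factor of pancreas and kidney, read 6.52, 6.95 and 7.17 against 8.94, 9.19 and 8.67, and fell 4.15-fold (adjusted p 6.49e-06). All 4 of its other probes were called lower too, at -1.44 to -2.34. Prox1, the homeobox gene of lymphatic vessels, fell by 2.15 on its brightest probe, while the other differed by -0.43 (adjusted p 0.214). Cpn1, the catalytic chain of carboxypeptidase N, fell by 2.08, with its other probes at 0.04 and -0.97. Abca9, an ABC transporter, fell by 2.13, with its other probes at -0.32 and -0.43. Dnajc5b, a cysteine-string protein found in testis, fell by 2.17, and Plek, a protein kinase C substrate of blood cells, also by 2.17.

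Genes that were detected on all 3 Zfy2_nf arrays and on no Zfy2_Eif2s3y array are given by their bounds. Atg10, an enzyme of autophagosome formation, read 6.24, 6.70 and 6.00 in the controls and was at least 2.83-fold lower. Shisal2b was at least 2.60-fold lower, as was the noncoding RNA Snhg11, and Tenm3, a neuronal adhesion protein, at least 2.31-fold. Tac2, the neurokinin B precursor, was at least 2.19-fold lower, the class IIa histone deacetylase Hdac9 at least 2.05-fold and the small GTPase Rab29 at least 1.87-fold. None of these controls overlapped the functional arrays. The other Tac2 probe differed by -0.25 (adjusted p 0.615). Adamts19, a secreted metalloprotease, was at least 2.42-fold lower (-1.33, adjusted p 0.0252). That call was lost without Zfy2_nf array 1 or without any 1 Zfy2_Eif2s3y array, at -1.0 to -1.37 with adjusted p 0.0657 to 0.1195.

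Homeobox genes were among both the rises and the falls. Of 38 Hox cluster genes on the array 21 passed the detection filter and were measured. Of these 21, 5 (23.8%) were called higher and none lower, against 2.69% higher over all genes. Hoxc6 was detected on 3 Zfy2_Eif2s3y, 3 Zfy2 and 1 XX array alone. It thus passed the filter through the groups where it was high, and the share is a description. The median change was 0.19, against -0.0045 over all genes, and with slide as a block 4 were higher. Besides Hoxd8 these were Hoxd9 (1.37, adjusted p 1.08e-04), Hoxb2 (1.02, 0.00786), Hoxc6 (1.73, 0.0126) and, named after its values were seen, Hoxa5 (1.14, 0.0283). Hoxa5 lost its call with the slide block (adjusted p 0.1455) and without Zfy2_nf array 1 or 3 or Zfy2_Eif2s3y array 1 or 2, at 0.94 to 1.18 with adjusted p 0.0698 to 0.1311. Hoxd9 read 9.83, 10.04 and 9.85 against 8.74, 8.45 and 8.44, with its other probe at 1.87. Hoxd8 (chr2:74704615-74707933) and Hoxd9 (chr2:74697763-74700208) are neighbours on GRCm38.p6, whereas the others lie in other Hox clusters. Hoxc6 read 6.14, 7.07 and 5.15 against 4.37, 4.36 and 4.43, at least 2.44-fold. Its functional arrays spread widely, and without Zfy2_Eif2s3y array 2 it was 1.26 and not called (adjusted p 0.0654).

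Outside the Hox clusters 22 patterning homeobox genes were measured, of which 5 were higher and 3 lower (36.4% called against 6.27% of all genes, median 0.04). Pax6, the eye and forebrain regulator, read 6.43, 6.50 and 6.32 against 4.56, 5.25 and 4.52, a rise of 1.64 ± 0.21 (SE, adjusted p 1.56e-04), and its other probe rose by 1.37. Every Pax6 reading in Zfy2_Eif2s3y was above every control. Otx1, Tlx1, Emx2 (0.61) and En2 (undetected in Zfy2_nf, at least 1.21-fold) were the other rises, and Prox1, Pax2 (-1.26) and Meis2 (-0.46) the falls. Emx2, En2, Pax2 and Meis2 were named after their values were seen. Emx2 lost its call without Zfy2_Eif2s3y array 2 (0.55, adjusted p 0.0582). En2 lost its call without Zfy2_nf array 2 or 3 or Zfy2_Eif2s3y array 1 or 2, at adjusted p 0.053 to 0.0931. Meis2 lost its call with the slide block (adjusted p 0.0832) and without any 1 array other than Zfy2_nf array 1, at -0.40 to -0.49 with adjusted p 0.0652 to 0.1192.

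Of 13 oocyte transcription factors 1 was higher and 1 lower (15.4% called against 6.27% of all genes, median -0.02). Sohlh2, a helix-loop-helix factor of early follicle growth, read 7.14, 7.27 and 7.30 against 5.56, 5.52 and 5.35 and rose 3.39-fold (adjusted p 5.90e-06). The 2 groups were tight and far apart, and its partner Sohlh1 differed by -0.02 (adjusted p 0.992). Figla, the activator of zona genes, was lower (-0.64, adjusted p 0.0392). The Figla call was lost without any 1 array other than Zfy2_Eif2s3y array 2, at -0.47 to -0.71 with adjusted p 0.0564 to 0.1704. Summed over the list, the linear intensity was 11663 to 12455 in Zfy2_Eif2s3y and 11478 to 13846 in Zfy2_nf, so the groups overlapped.

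RNA-binding and small RNA genes gave few calls. Zfp36, an immediate early gene that also directs decay of AU-rich mRNAs, read 8.84, 8.95 and 8.84 against 7.05, 6.52 and 7.54. Its rise was 1.84 ± 0.21 (SE, 3.58-fold, adjusted p 9.40e-05). Zfp36 was the 1 call among 14 immediate early genes (7.14%, median 0.09) and among 27 mRNA decay genes (3.7%, median 0.05). The small RNA pathway had 2 lower members of 23 (8.7% called against 6.27% of all genes, median 0.09). Piwil1, a PIWI protein that binds piRNAs, read 9.41, 9.16 and 9.75 against 10.39, 10.75 and 10.13 (-0.99, adjusted p 0.00626), with its other probe at -0.97. Dicer1, which makes small RNAs, was lower by 0.58 (adjusted p 0.0257), but its other probe differed by -0.20 (adjusted p 0.447). Without any 1 array other than Zfy2_nf array 3 Dicer1 lost its call, at -0.44 to -0.61 with adjusted p 0.0594 to 0.1259.

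Chromatin genes were called higher at 2 of 21 members of the H3K4 list (9.52%, against 2.69% higher over all genes, median 0.01) and at none of 24 polycomb genes (median 0.11). Kmt2a, an H3K4 methyltransferase, read 6.10, 6.09 and 5.78 against 4.70, 4.72 and 4.66 and was undetected on all controls. It was at least 2.23-fold higher (adjusted p 5.90e-06), and its other probe rose by 0.66. Kdm1a, an H3K4 demethylase stored in the oocyte, rose by 0.68 (adjusted p 0.00358). Of 16 cohesin genes Stag2 (0.61, adjusted p 0.006) and Nipbl (0.43, adjusted p 0.0413), a subunit and the loader, were higher. The share called was 12.5% against 6.27% of all genes (median 0.04). The Stag2 arrays, 9.38, 9.45 and 9.36 against 8.66, 8.82 and 8.88, did not overlap. Nipbl lost its call when any 1 of the 6 arrays was left out, at 0.36 to 0.50 with adjusted p 0.0519 to 0.1593.

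Meiotic maturation and spindle genes were mostly not called, at shares of 3.03% and 6.45% against 6.27% of all genes. Among 33 genes of arrest and maturation (median 0.01) Pde3a, the phosphodiesterase whose activity lowers cAMP at maturation, was lower by 0.48 (adjusted p 0.0355). Its call was lost without any 1 array other than Zfy2_nf array 1, at -0.38 to -0.52 with adjusted p 0.0516 to 0.1562, and its other probe differed by -0.01. Among 31 spindle and kinetochore genes (median -0.02) Ckap5, a microtubule polymerase, read 9.64, 9.94 and 9.78 against 9.18, 9.18 and 9.32 (0.56, adjusted p 0.00786). Aurkb, the kinase of the chromosomal passenger complex, was lower by 0.74 (adjusted p 0.0419). Without Zfy2_nf array 2 or 3, or Zfy2_Eif2s3y array 1 or 2, Aurkb lost its call, at -0.60 to -0.76 with adjusted p 0.073 to 0.1683.

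Stress genes were listed because Eif2s3y belongs to the eIF2 machinery. Of 24 eIF2 and stress response genes only Cebpb, a bZIP factor, was called (4.17% against 6.27% of all genes, median -0.03). It was undetected on all functional arrays and at least 1.18-fold lower (adjusted p 0.0446). Without any 1 array other than Zfy2_nf array 2 it lost its call, at fitted changes of -0.38 to -0.51 with adjusted p 0.0905 to 0.1496. Of 21 heat shock genes 3 (14.3%) were higher and none lower, against 2.69% higher over all genes (median 0.18), and 2 were higher with slide as a block. Hspb1, a small heat shock protein, read 8.09, 8.64 and 8.01 against 6.99, 6.30 and 6.89 (1.52, adjusted p 2.70e-04), but its other probe differed by -0.15 (adjusted p 0.822). Hspa1b, the inducible Hsp70, read 5.69, 6.63 and 5.98 against 4.87, 4.65 and 4.86 (1.30, adjusted p 0.00347). Neither overlapped between the groups. Hspd1, the mitochondrial Hsp60, was higher by 0.45 (adjusted p 0.0386), and its other probe differed by 0.29 (adjusted p 0.364). Hspd1 lost its call without any 1 array other than Zfy2_nf array 3, at 0.34 to 0.48 with adjusted p 0.0757 to 0.1701.

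Cell death genes had 2 calls among 27, both lower (median 0.02), and this share of 7.41% is near the 6.27% of all genes. Apaf1, the scaffold of the apoptosome, read 6.42, 6.43 and 6.63 against 7.06, 7.22 and 7.34 (-0.71 ± 0.12, adjusted p 0.0021). Bcl2l11, the BH3-only protein Bim, read 8.74, 8.48 and 8.89 against 9.30, 9.56 and 9.48 (-0.74, adjusted p 0.00964). In both genes every functional array lay below every control. Without Zfy2_Eif2s3y array 2 Bcl2l11 was -0.63 and not called (adjusted p 0.0569). Among 26 repair genes 11.5% were called (median -0.07). H2ax, the histone marked at DNA breaks, rose by 0.57 (adjusted p 0.0074). Rad54l, a recombination translocase, and Xrcc6, the Ku70 end-binding protein, were lower by 0.56 and 0.35. Rad54l lost its call without Zfy2_nf array 2 (-0.49, adjusted p 0.0617) and without Zfy2_Eif2s3y array 1 (-0.45, adjusted p 0.0706). Xrcc6 lost its own when any 1 of the 6 arrays was left out, at -0.32 to -0.38 with adjusted p 0.0671 to 0.1432.

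Amino acid transporters and glycine enzymes held calls in both directions. Of 20 amino acid transporters 2 were lower and none higher (10% called against 6.27% of all genes, median 0.05). These were Slc1a1 and Slc7a11, the cystine and glutamate exchanger. Slc7a11 read 8.88, 8.89 and 9.07 against 9.76, 9.78 and 9.83 (-0.84 ± 0.11, adjusted p 1.56e-04), and both of its other probes were called lower. Among 14 glycine and one-carbon enzymes 21.4% were called (median -0.03). Of these, Gldc was detected on 3 Zfy2_Eif2s3y, 3 Zfy2 and 1 Zfy1_lo array alone. It thus passed the detection filter through the groups where it was high, and the share is a description. Gldc and Gnmt, glycine N-methyltransferase, were higher (Gnmt 0.78, adjusted p 0.0441). Shmt1, the cytosolic serine hydroxymethyltransferase, was lower (-1.45, adjusted p 0.0138). Gnmt lost its call without Zfy2_nf array 2 or 3, or Zfy2_Eif2s3y array 1 or 2, at 0.65 to 0.71 with adjusted p 0.1245 to 0.1686. Shmt1 lost its call without Zfy2_nf array 1 or 3 or Zfy2_Eif2s3y array 2, at -1.17 to -1.27 with adjusted p 0.0539 to 0.0786. The other Shmt1 probe differed by -0.33 (adjusted p 0.359).

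Among 18 glycosyltransferase genes, 2 were higher and 2 lower (22.2% called against 6.27% of all genes, median -0.04). Gcnt2, the branching enzyme of the I blood group, read 6.64, 6.66 and 6.62 against 8.52, 8.54 and 8.49. The arrays of each group were nearly equal and the groups 1.88 apart (adjusted p 6.78e-05), though its other probe differed by -0.65 (adjusted p 0.258). C1galt1c1, the chaperone of core 1 O-glycan synthesis, rose by 0.68 (adjusted p 0.00811) and Galnt6, which starts O-glycans, by 0.49 (adjusted p 0.031). Galnt6 lost its call when any 1 of the 6 arrays was left out, at 0.44 to 0.52 with adjusted p 0.0564 to 0.1113. Galntl5, a spermatid member of that enzyme family, was lower by 1.30 (adjusted p 0.0174). Without Zfy2_nf array 1 or 2, or Zfy2_Eif2s3y array 1 or 2, Galntl5 lost its call, at -1.09 to -1.27 with adjusted p 0.0564 to 0.0869. With Dnajc5b, Galntl5 was also 1 of the 2 lower genes among 12 measured spermatid genes (16.7% called, median 0.04).

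Signalling genes were called one by one, and 6.27% of all genes were called. The shares were 6.67% of the ErbB, 13.6% of the Wnt, 4.76% of the TGF beta and BMP and 5.88% of the calcium list. Egfr, the epidermal growth factor receptor, was the 1 lower gene of 15 ErbB genes (median 0.01). It read 8.06, 7.77 and 7.36 against 9.21, 9.40 and 9.43 (-1.61 ± 0.22, adjusted p 4.08e-04). Its other probes were at -1.73, called, and 0.13 (adjusted p 0.801). Of 22 Wnt genes (median 0.05) the receptor Fzd7 rose by 0.77 (adjusted p 0.0074), the effector Tcf7l2 was higher by 0.78 (adjusted p 0.0451) and Axin2, a feedback inhibitor, was lower by 0.43 (adjusted p 0.0235). Tcf7l2 lost its call without any 1 array other than Zfy2_nf array 3, at 0.53 to 0.86 with adjusted p 0.0738 to 0.1984. The other Tcf7l2 probes differed by 0.42 to 0.76, and none was called (adjusted p 0.14 to 0.465). Axin2 lost its call without Zfy2_nf array 1 or 2 or Zfy2_Eif2s3y array 1 or 2, at -0.37 to -0.46 with adjusted p 0.0502 to 0.1068. Of 21 TGF beta and BMP genes (median 0.12) Smad5 was higher by 0.76 (adjusted p 0.0213). Without Zfy2_nf array 1 or 2, or Zfy2_Eif2s3y array 1 or 3, Smad5 lost its call, at 0.63 to 0.77 with adjusted p 0.0581 to 0.1026. Of 17 calcium store and entry genes (median 0.21) the release channel Itpr2 was higher by 0.59 (adjusted p 0.0153). Itpr2 lost its call without Zfy2_nf array 2, Zfy2_Eif2s3y array 1 or Zfy2_Eif2s3y array 2, at 0.55 to 0.58 with adjusted p 0.0516 to 0.0652, and its other probe differed by -0.37.

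Housekeeping lists were read next to the 6.27% of all genes. Of 35 proteasome subunit genes 1 was called (2.86%, median -0.01). It was Psmb10, an immunoproteasome subunit, which fell by 1.71 (adjusted p 0.0027), from 6.99, 6.37 and 7.17 to 4.63, 5.55 and 5.23. Rpl22l1 (0.68) was called among 58 cytosolic ribosomal protein genes, and Ndufb10 (0.62) and Atp5g3 (0.69) among 38 oxidative phosphorylation genes. In the glycolysis list of 14 genes Pfkl (0.85) and Pdha1 (-0.80) were called. Pdha1 is a subunit of pyruvate dehydrogenase, which acts after glycolysis. These calls had adjusted p of 0.0108 to 0.0486. The shares called were 1.72%, 5.26% and 14.3% of the lists. Each call was lost when single arrays were left out. Rpl22l1 was 0.55 to 0.65 without Zfy2_nf array 2 or 3 or Zfy2_Eif2s3y array 1 (adjusted p 0.0568 to 0.0919). Ndufb10 was 0.49 to 0.58 without Zfy2_nf array 1 or Zfy2_Eif2s3y array 2 (0.0522 to 0.0565), and its other probe differed by -0.09 (adjusted p 0.795). Atp5g3 was 0.43 to 0.78 without any 1 array other than Zfy2_nf array 3 (0.0619 to 0.2034). Pdha1 was -0.68 to -0.69 without Zfy2_nf array 2 or Zfy2_Eif2s3y array 1 (0.0799 to 0.0828). Pfkl was 0.62 to 0.87 without any 1 array other than Zfy2_Eif2s3y array 3 (0.0893 to 0.201). The other Pfkl probe went the other way, at -0.46 (adjusted p 0.0687), and was not called. The medians of these 3 lists were 0.05, 0.01 and 0.15, and none of 14 cholesterol synthesis enzymes (median -0.01) or of 7 X-linked homologues of Y genes (median 0.13) was called.

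**Figure D4:**
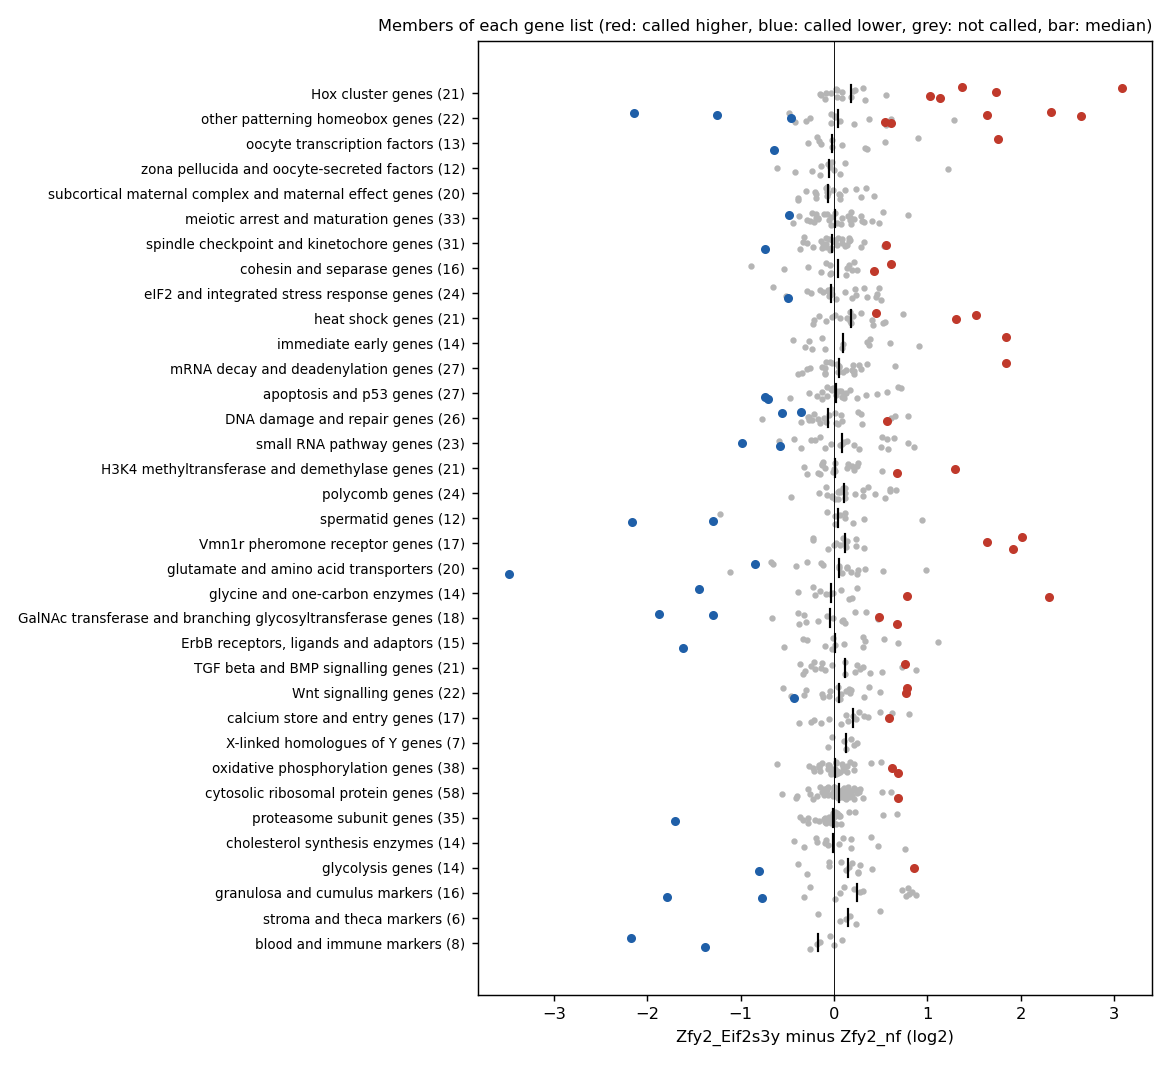
Change (Zfy2_Eif2s3y minus Zfy2_nf, log2) of each measured member of 35 gene lists, with the number measured in brackets; red points were called higher, blue called lower and grey not called, and black bars are list medians. The Hox cluster list holds 5 red points and no blue, and the zona pellucida and maternal effect lists hold no coloured point.

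Markers of other ovarian cells were read beside these changes. Of 16 measured granulosa and cumulus markers 2 were lower and none higher (12.5% called against 6.27% of all genes). The median was 0.25, and 5 of these markers were detected on all 6 arrays. Their summed linear intensity was 1738 to 3915 in Zfy2_Eif2s3y and 1658 to 2495 in Zfy2_nf. The lower ones were Cyp11a1, the enzyme that opens steroid synthesis (-1.79, adjusted p 3.34e-04), and Col4a1, a basement membrane collagen (-0.77, adjusted p 0.00452). The other Cyp11a1 probes differed by 0.35 and 0.61, so its direction depended on the probe. Nr5a1, Ptx3, Slc38a3 and Star were detected on none of the 6 arrays. Blood and immune markers summed to 407 to 611 in Zfy2_Eif2s3y and 825 to 930 in Zfy2_nf. Plek and Cd200 were the lower genes of 8 (25% called), and both are in these sums. The Plek mean was 5.20 in Zfy2_Eif2s3y and 7.37 in Zfy2_nf, and that of Cd200 was 7.24 and 8.62. The 6 members not called changed by -0.26 to 0.08. Ms4a1, a B cell marker, Btla and Cd200 were detected on all 6 arrays, and Ms4a1 (0.08, adjusted p 0.924) and Btla (-0.26, adjusted p 0.852) were not called. The markers Ptprc, Cd3e, Itgam, Hba-a1, Hbb-b2, Cd52 and Pou2af1 were detected on none of the 6 arrays. Cd200, a membrane glycoprotein, was lower by 1.38 (adjusted p 0.0107) and lost its call without Zfy2_Eif2s3y array 3 (-1.18, adjusted p 0.0538). Stroma and theca markers had no call among 6 and summed to 354 to 369 against 291 to 313. Lum, Cdh5 and Tie1 were undetected on the 6 arrays. The part of such cells in the other changes was not tested.

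Against XX, the Zfy2_nf control itself had 9 called genes (0.0739%), and 5 of the 9 were called here too. In 4 of these the Zfy2_nf level lay outside the range of the other means. Mb21d2 read 9.12, 8.85 and 9.11 in Zfy2_Eif2s3y and 7.57, 7.43 and 7.54 in Zfy2_nf, while the XX mean was 9.98. Pls3, an actin-bundling plastin, read 8.23, 7.94 and 8.38 against 6.52, 5.72 and 6.57, with an XX mean of 7.70. Zfp536, a zinc finger repressor of neurons, read 5.94, 6.34 and 6.44 against 4.63, 4.79 and 4.62, with an XX mean of 7.34. In these 3 genes Zfy2_nf was the lowest of the 3 genotypes. Fsip1, a sperm fibrous sheath interacting protein, read 4.60, 4.32 and 4.35 against 5.29, 5.56 and 5.36, with an XX mean of 4.52, so there Zfy2_nf was the highest. In the present comparison Mb21d2 rose by 1.52 and Pls3 by 1.91. Zfp536, undetected in Zfy2_nf, was at least 2.64-fold higher, and Fsip1, undetected in Zfy2_Eif2s3y, at least 1.51-fold lower. The other probe of Mb21d2 differed by 0.23 (adjusted p 0.786). Zfp536 lost its call (adjusted p 0.0259) without any 1 array other than Zfy2_Eif2s3y array 1, at 1.46 to 1.61 with adjusted p 0.0626 to 0.0875. Galntl5, by contrast, had an XX mean of 9.15 and was lower still in Zfy2_Eif2s3y than in Zfy2_nf. Rtn4rl1, 1700067K01Rik, Secisbp2 and Rfesd, the remaining genes of the 9, were not called here.

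Slide and genotype overlapped in part, because Zfy2_nf array 3 was the only control on the slide of the functional arrays. Adding slide to the fit as a fixed block gave 473 calls (3.88%), of which 417 were among the 764. Of 86 named called genes 20 lost their call in that fit, at adjusted p 0.0525 to 0.2538. These 20, chosen by the naming rule, were Zfp536, Adamts19, Pde3a, Ckap5, Aurkb, Nipbl, Cebpb, Hspd1, Xrcc6, Dicer1, Galntl5, Gnmt, Tcf7l2, Ndufb10, Atp5g3, Rpl22l1, Pdha1, Pfkl, Cd200 and Tmem92. Within slide 2 alone, at 3 arrays against 1, 6 genes (0.0492%) were called, namely Hoxd8, Hic1, Dcpp3, Mettl7a2 and Mettl7a3 higher and Pcyt2 lower. When that same contrast borrowed the spread of all arrays, an alternative chosen after seeing the data, 143 genes (1.17%) were called, 118 of them among the 764. None of the 24 named largest rises and falls lost its call in any fit that left out 1 array. Of the 24, Pde10a lost its call with the 6 arrays normalized and fitted alone (adjusted p 0.0699). Vmn1r93, Vmn1r123, Gfer, Micall2 and Prox1 were not called for slide 2 with the spread of all arrays.

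A functional Zfy2 transgene without Eif2s3y was available in batch 2, where the 3 Zfy2 arrays can be set against 3 Zfy1_hi arrays. That comparison shares no array with the present one, though its control carries a multi-copy Zfy1 transgene. It gave 913 called genes (7.49%), 374 higher and 539 lower. Of these, 165 were higher in both, which is 50.3% of the 328 and 44.1% of the 374, and 254 were lower in both, 58.3% of the 436 and 47.1% of the 539. Another 4 genes (Zfy2, Mb21d2, Tmem92 and, named after its values were seen, Rin2) were higher here and lower there, and 0 the other way. That the groups with functional Zfy2 move alike was already known from earlier results of these data, so this overlap is a description. Hoxd8 changed by 3.32 there, Hic1 by 2.58, Otx1 by 2.52, Sohlh2 by 1.85 and Zfp36 by 1.97, each called. Cpn1 changed by -2.80, Dapk2 by -2.40, Gcnt2 by -2.15 and Glis3 by -1.98, also called. Slc1a1 was -1.57 there (adjusted p 0.04), while Gfer was -1.04 and not called (adjusted p 0.16).

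The difference between the 2 comparisons was tested gene by gene, and 11 of 12184 genes (0.0903%) were called, with 696 at an unadjusted p under 0.05. Of these 11, 6 were also called in the present comparison. Dcpp3 rose by 2.55 here and differed by 0.66 there (difference 1.89), whereas Bahcc1 rose more there, by 3.14 (difference -1.04). Shisal2b had a fitted change of -1.76 here and of 0.06 there (difference -1.82). For the other 758 called genes the difference did not pass the threshold, which does not show that the changes were equal.

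**Figure D5:**
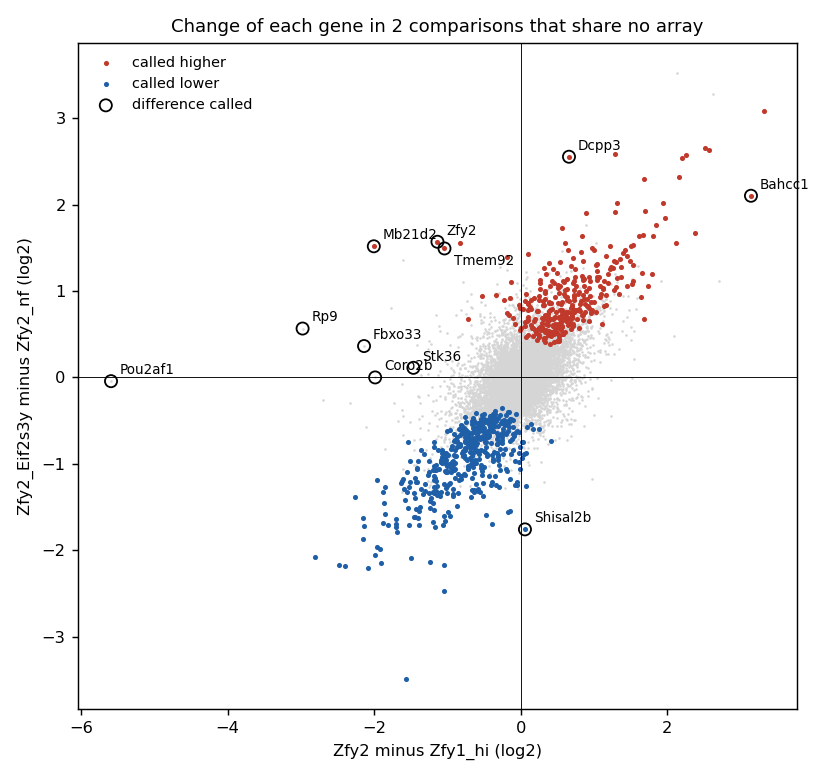
Change of each gene in Zfy2_Eif2s3y minus Zfy2_nf (log2, vertical) against its change in Zfy2 minus Zfy1_hi (log2, horizontal); red and blue points were called in the first comparison, and circles mark the 11 genes whose changes differed by test. Dcpp3 lies to the left among the large rises and Bahcc1 farther right, and Pou2af1 lies far to the left near a change of 0 in the first comparison.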

How the data were processed

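Oocyte RNA was measured on 18 Illumina bead arrays. Per the file headers, the table that the authors deposited without normalization held the bead intensity and the detection p-value (p_value) of 45281 probes. The authors also deposited a series matrix of linear intensity, used here as an alternative. GenomeStudio was named per the submitters' processing notes, and its settings are not given in the sources used here. Of the probes 34885 had 1 gene symbol, 18 several and 10378 none. Intensities were corrected with neqc (offset 16, detection p-values standing in for negative controls, quantile normalization over 18 arrays) in limma 3.58.1, R 4.3.3, and values computed from the deposited table are log2 intensities. Probes detected (p under 0.05) on at least 3 arrays were kept, and the brightest probe stood for each of 12184 of 19057 genes. The number of arrays limits the precision. Values of undetected genes are bounds ("at least"), set against the higher of the probe's own level and the lowest detected level of each array. They hold for this background correction and offset alone. Fitted log2 changes in the alternatives went below them, down to 1.33 for Hic1, 1.27 for Csta2 and 1.10 for Gldc. With the authors' series matrix the Zfy2 probe was at 0.71.

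A limma model with 6 group means (12 residual degrees of freedom) gave two-sided p-values, adjusted by Benjamini-Hochberg over all genes. Calls were made below an adjusted p of 0.05. An exact test of 3 arrays against 3 cannot go below 0.1. Named genes, without clone or locus names, were the 12 largest rises and falls without overlap, up to 8 switched genes a side by their bound, up to 4 called members of each of 36 lists by smallest p, the transgene genes, and up to 10 and 8 genes of the XX and difference contrasts. The members and lists were chosen with earlier results of these data known. Same-numbered arrays did not deviate together (r = -0.05 to 0.0006), so numbers were not used as pairs. The scripts were tested on simulated data. Alternatives covered slide, arrays fitted, background, scaling, filter, probe choice, variance model and leaving out each array.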

Additional observations from a re-analysis of the deposited data

Results flagged for a closer look

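The change in Zfy2_Eif2s3y against Zfy2_nf differed from the change in Zfy2 against Zfy1_hi at 11 genes, by a limma contrast of the 2 differences adjusted over all genes. Zfy2 differed by 2.71 on the log2 scale, from fitted changes of 1.57 here and -1.14 there. Its level was 5.91 in Zfy2_Eif2s3y, 4.34 in Zfy2_nf, 5.88 in Zfy2 and 7.02 in Zfy1_hi, and whether the probe reads Zfy1 transcripts was not tested. Mb21d2 differed by 3.52 (1.52 here, -2.0 there) and Tmem92, a transmembrane protein, by 2.53 (1.49 here, -1.04 there, the latter called at an adjusted p of 0.0499). Tmem92 read 8.62, 8.46 and 9.06 in Zfy2_Eif2s3y against 7.22, 7.40 and 7.04 in Zfy2_nf. Dcpp3 differed by 1.89, Bahcc1 by -1.04 and Shisal2b by -1.82.

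The other 5 genes were called between Zfy2 and Zfy1_hi and not between Zfy2_Eif2s3y and Zfy2_nf. Pou2af1, a coactivator of B cells, was undetected on all 6 arrays here and differed by 5.55 between the comparisons. Rp9 differed by 3.54, with changes of 0.56 here and -2.98 there. Fbxo33 differed by 2.5, Coro2b by 1.98 and Stk36 by 1.57. The count was 7 in place of 11 with median scaling, with a replicate block, or without Zfy2_nf array 1, Zfy2_nf array 2, Zfy1_hi array 1 or Zfy2 array 3.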

How the results depend on the processing

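The 764 calls became 473 with slide as a fixed block, 6 within slide 2 alone, 432 with the 6 arrays normalized and fitted alone, and 143 for slide 2 with the spread of all arrays (chosen after seeing the data). Leaving out 1 array gave 461 to 731 (502 without Zfy2_nf array 2, 481 and 461 without Zfy2_Eif2s3y array 1 and 2), and 328 of the 764 held in all 6 such fits. Shared replicate numbers are no evidence of pairing, and with the number as a replicate block 688 genes were called. The difference between the comparisons gave 7 genes with a replicate block or median scaling and 7 to 10 when 1 array was left out. Within slide 2 the Eif2s3y probe was at 1.69 (adjusted p 0.183) and the Zfy2 probe at 1.61 (0.1615), neither called. The Eif2s3y gene value of -0.20 reversed to 1.76 when probes had to be detected on all 3 arrays of a group (the other probe then stood for the gene) and to 0.78 as the mean of both probes. AGGCCT was in 9.18% of all tested promoters within the 250 bases before the start, against 10.62% in the whole window. The other settings gave 543 to 874 calls, and 37 of 86 named called genes kept their call in every setting other than slide 2 alone. With 3 arrays a group and amplified RNA, small changes in dim genes are least certain.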

Other observations

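A pair of genes with large differences was not called. Mettl7a2, a gene of the methyltransferase-like family, read 7.87, 7.77 and 8.17 in Zfy2_Eif2s3y and 4.51, 4.33 and 4.41 in Zfy2_nf, at least 8.60-fold higher but with an adjusted p of 0.0895. Mettl7a3 read 7.85, 7.63 and 8.11 against 4.73, 4.65 and 4.35, at least 8.16-fold higher (adjusted p 0.115). Both were undetected on all Zfy2_nf arrays. Their XX means were 7.04 ± 1.95 and 7.10 ± 1.93 (SD, n = 3), and each was detected on 2 of 3 XX arrays. In Zfy1_hi each was detected on 1 of 3 arrays, with SDs of 3.33 and 3.41. The fit takes its spread from all groups, and the SE of both changes was 1.16. They are near copies on chromosome 15, so their probes may read the same transcript, and both were named after their values were seen.

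Called genes lay on every chromosome. The share was highest on X among chromosomes with over 5 genes tested, at 8.74% (18 higher and 20 lower of 435), and lowest on chromosome 8, at 4.53% (12 and 17 of 640). Of 346 called genes with more than 1 kept probe, the 541 other probes had the same direction in 461 cases, 139 of them called, and 1 probe was called in the opposite direction.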
